A study of Rattus norvegicus with 6 samples.

Results

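The DnaJ (Hsp40) co-chaperones were examined in rat liver, as all non-control array probes whose accession carries a RefSeq symbol starting with Dnaja, Dnajb or Dnajc. There were 70 such probes for 40 genes, of 61657 non-control probes and 15284 named genes on the array. Liver RNA came from male Sprague-Dawley (Crl:CD(SD)) rats bought at 5 weeks of age, 3 given corn oil, the vehicle, and 3 given o-anthranilic acid (2-aminobenzoic acid) at 1000 mg/kg/day, with 1 single-colour Agilent array per rat. One label puts dosing at 9 weeks and another puts the measurement at 28 days, so the duration is unsettled. The comparison asks how DnaJ gene signals differ in treated liver.

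DnaJ proteins carry a J domain that makes Hsp70 chaperones hydrolyse ATP and so close on an unfolded client. Class A members keep the full domain layout of the bacterial DnaJ protein, with a glycine-rich stretch and zinc fingers, class B members lack the zinc fingers, and class C members share the J domain alone. Each compartment has its own pairs: Hspa8 and the inducible Hspa1a in the cytosol, Hspa5 (BiP) in the endoplasmic reticulum (ER) and Hspa9 in mitochondria. Several cytosolic members are targets of heat shock factor 1, and several ER members of the unfolded protein response. In liver, which makes and secretes much of the plasma protein, the ER members act in the folding of secreted proteins.

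No DnaJ member passed the test. The largest well-measured difference was in Dnaja4, a heat-inducible cytosolic class A member, whose signal was 1.84-fold lower in treated liver, with all 3 treated rats below all 3 controls. Smaller differences in the same direction were seen for the cytosolic members Dnajb2, Dnaja1 and Dnajb4. ER members had no common direction. Of the mitochondrial members, 4 of 5 had higher means in treated liver, among them Dnaja3 at a log2 difference of 0.04 (SE 0.14). Of all tested genes, 48.0% had lower means. By limma, with p adjusted over 33428 tested probes, 0 of 57 tested DnaJ probes and 0 of 34 tested DnaJ genes were under an adjusted p of 0.05, where 0.0329% of all probes and 0% of all 10257 genes were.

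Testing was limited to probes detected over background on every array of either group, and each gene was represented by the brightest of its tested probes. By unadjusted limma p under 0.05, 5 of 34 DnaJ genes were lower and 3 were higher, against 6.15% of all tested genes lower and 5.47% higher. The groups did not overlap for 6 DnaJ genes in the lower direction and 3 in the higher, against 9.13% and 10.7% of all genes (19.8% in either direction). All 5 of the lower genes are cytosolic (of 12 tested), and 2 of the 3 higher genes are mitochondrial (of 5 tested). The 5 include Dnajb3, whose brightest probe met the detection rule through its corn oil arrays alone. With probes above background on all 6 arrays, 4 members were lower at that p, against 5.88% of all genes. In that setting 5 were lower without overlap, but the share of all genes without overlap was not computed there. The median difference over the 34 genes was 0.02, and over all genes 0.01, both on the log2 scale as anthranilic acid minus corn oil. There were 15 members below 0 and 19 above. The differences between classes or compartments were not tested, since the members are not replicates.

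**Figure D1:**
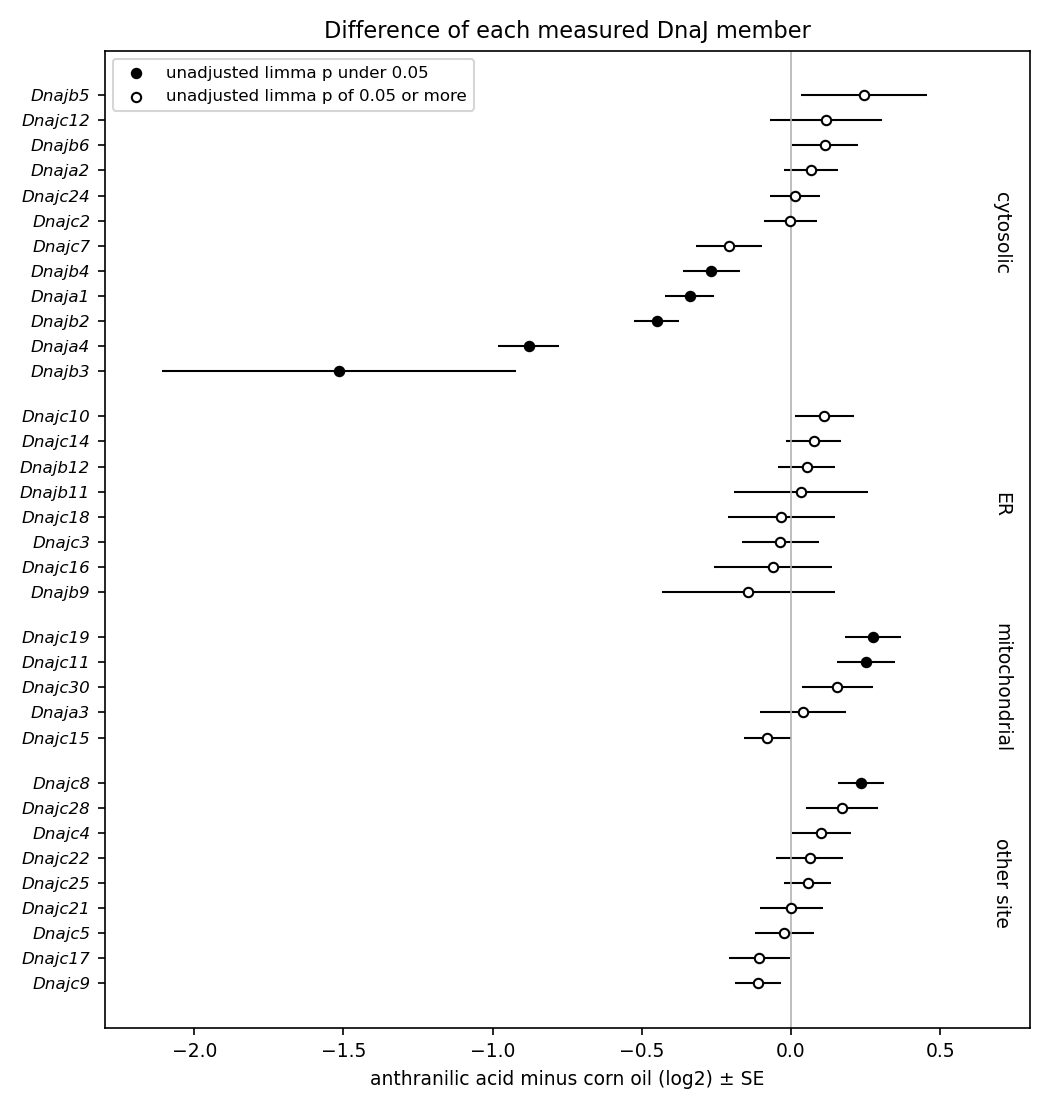
Difference between anthranilic acid and corn oil livers for each of the 34 measured DnaJ genes (log2, point with the standard error of the limma fit, 3 arrays per group), grouped by the compartment of the protein. Filled points have an unadjusted limma p under 0.05: 5 cytosolic members lie below 0, and 2 mitochondrial members and Dnajc8 lie above. The 5 include Dnajb3, whose tested probes have opposite signs.

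Arrays were alike in quality. Between 53.3% and 58.0% of probes were well above background, no spot was saturated, and arrays correlated at 0.987 to 0.992 within a group and 0.984 to 0.989 between groups, over tested probes. The hepatocyte markers Alb, Ttr, Apoa1, Serpina1, Cyp2e1 and Tat were all tested, with 0 past the adjusted threshold, and 5 of 6 had lower means in treated liver. The log2 of their summed signals, to which the brightest markers add most, was 11.50 to 11.56 in controls. It was 11.41 to 11.48 in treated rats, without overlap. Apoa1 was at -0.57 (SE 0.15, adjusted p = 0.286), Cyp2e1 at 0.23, and Alb at a mean of 9.50 in controls and 9.44 in treated rats. Lymphocyte markers had higher means in treated liver, 4 of 4 tested and 0 past the adjusted threshold. The log2 of their summed signals was 1.01 to 1.22 in controls and 1.45 to 1.81 in treated rats. Kupffer cell markers had lower means, 4 of 4 and 0 past it, with overlapping sums (6.21 to 6.62 against 5.88 to 6.47). The part of any of these in the DnaJ signals was not tested, and in whole tissue fewer cells of a type and less RNA per cell cannot be told apart. Anthranilic acid replicate 3 lay on a second slide, so values within slide 1, which are those with slide as a block, rest on the other 5 arrays.

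Class A was measured in full, at 4 of 4 genes, with a median difference of -0.15 (-0.17 within slide 1). Its 2 heat-inducible cytosolic members were lower, and Dnaja2 and the mitochondrial Dnaja3 stood near 0. All levels below are log2 signals relative to the 75th percentile of the same array, and a level at one probe cannot be set against that at another.

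Dnaja4 stood at -0.54, -0.42 and -0.52 in the corn oil rats and at -1.43, -1.48 and -1.21 in the treated rats. The groups did not overlap, and the gap between them was wider than the range within either. The difference was -0.88 (SE 0.10, n = 3 per group, limma adjusted p = 0.0914, unadjusted p = 0.000104). Within slide 1 it was -0.96 (adjusted p = 0.111). Its adjusted p was between 0.0517 and 0.338 under all alternative settings, so it passed under none of them.

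Dnaja1 is an abundant cytosolic partner of Hspa8 that also serves the import of proteins into mitochondria. It stood at 6.19, 6.26 and 6.23 in controls and at 5.83, 5.86 and 5.96 in treated rats. Each treated rat was below each control. The difference was -0.34 (SE 0.08, adjusted p = 0.258), or 1.27-fold lower, and -0.38 within slide 1.

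Dnaja2, another cytosolic partner of Hspa8 in refolding, stood at 2.62, 2.42 and 2.51 in controls and at 2.55, 2.56 and 2.65 in treated rats. These ranges overlap, and the difference of 0.07 (SE 0.09) was smaller than its error. A second Dnaja2 probe gave 0.11. Dnaja3, the class A member of the mitochondrial matrix, stood at 1.07, 0.70 and 0.61 in controls and at 0.73, 0.96 and 0.81 in treated rats. Corn oil replicate 1 was the highest of the 6 and the rest were mixed. The difference was 0.04 (SE 0.14), and 2 dimmer probes gave -0.08 and -0.01.

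**Figure D2:**
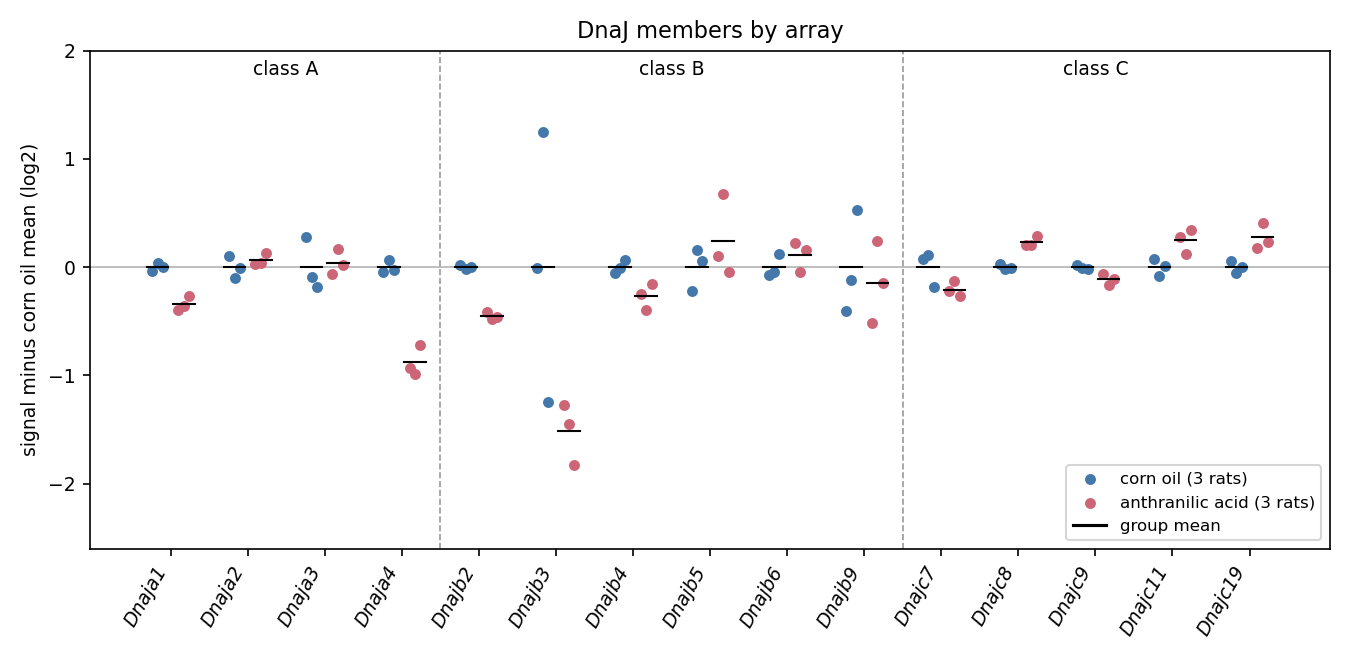
Signal of 15 DnaJ genes on each array, as the log2 difference from the mean of the 3 corn oil arrays, with black bars at the group means. Dnaja4, Dnaja1, Dnajb2 and Dnajb4 have all 3 treated points below all 3 corn oil points with tight groups, whereas the corn oil points of Dnajb3 and Dnajb9 are spread widely.

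The promoters of Dnaja1, Dnaja4 and Dnajb2, the members under an unadjusted p of 0.05 in every alternative, are shown. Heat shock factor 1 binds repeats of GAA and TTC. That of the ER member Dnajc3, the only tested member searched that held the ER stress element given below, is shown as well. RefSeq promoter windows of the GRCr8 assembly, 250 bases before to 50 after the annotated start, were found for 25 of the 34 tested members. They were searched on both strands for GAANNTTC, for TTCNNGAA and for the ER stress element (CCAAT, then 9 bases, then CCACG). The first 2 motifs read alike on both strands and can overlap in a longer repeat. The windows lie on the plus strand at chr5:60638154-60638453 (Dnaja1), chr8:63981337-63981636 (Dnaja4), chr9:84179518-84179817 (Dnajb2) and chr15:102432417-102432716 (Dnajc3), with motif matches in capitals.
Dnaja1: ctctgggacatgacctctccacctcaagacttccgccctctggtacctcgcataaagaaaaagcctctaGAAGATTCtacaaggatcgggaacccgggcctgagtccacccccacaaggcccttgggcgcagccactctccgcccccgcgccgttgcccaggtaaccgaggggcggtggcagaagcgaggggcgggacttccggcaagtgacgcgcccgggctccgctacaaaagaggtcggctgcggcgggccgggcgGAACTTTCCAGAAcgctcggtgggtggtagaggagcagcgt
Dnaja4: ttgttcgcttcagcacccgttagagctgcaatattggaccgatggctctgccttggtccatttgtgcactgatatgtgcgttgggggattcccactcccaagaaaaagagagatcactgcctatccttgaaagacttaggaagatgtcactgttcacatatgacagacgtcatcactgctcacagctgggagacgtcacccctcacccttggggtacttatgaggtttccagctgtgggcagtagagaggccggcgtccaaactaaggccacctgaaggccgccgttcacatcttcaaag
Dnajb2: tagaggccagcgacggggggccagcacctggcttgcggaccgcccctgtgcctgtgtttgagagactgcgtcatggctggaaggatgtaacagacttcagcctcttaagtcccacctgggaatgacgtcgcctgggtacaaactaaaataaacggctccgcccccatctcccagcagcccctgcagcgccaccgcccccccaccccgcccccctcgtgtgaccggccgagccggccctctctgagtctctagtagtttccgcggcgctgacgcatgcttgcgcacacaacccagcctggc
Dnajc3: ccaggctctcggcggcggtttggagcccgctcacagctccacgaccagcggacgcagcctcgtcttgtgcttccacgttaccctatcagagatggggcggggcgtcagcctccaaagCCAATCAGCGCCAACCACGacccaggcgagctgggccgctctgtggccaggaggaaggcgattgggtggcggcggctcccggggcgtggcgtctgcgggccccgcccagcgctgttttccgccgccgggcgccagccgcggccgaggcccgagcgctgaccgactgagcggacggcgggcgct

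Dnaja1 held 3 heat shock motif matches, 1 at positions -181 to -174 from the start and an overlapping pair spanning 10 to 22 downstream of it. Dnaja4 and Dnajb2, which had lower values in treated liver as Dnaja1 did, held none in this window. The window of Dnajb3, whose probes disagreed (given with class B), is not shown and also held none. Dnajb6 and the ER member Dnajc18 held 1 each, and their differences were 0.11 (SE 0.11) and -0.03 (SE 0.18). Among 33469 promoter windows of this length, 8.59% held GAANNTTC, 8.77% held TTCNNGAA and 15.9% held either, against 3 of 25 tested members. The ER stress element was found in Dnajc3 only among the 25 and in 0.0657% of all windows. Windows of the same length held 4 heat shock motif matches for Hspa8, 3 for Hsph1 and 2 for Dnajb1, which had no matched probe. Hspa1a, the inducible Hsp70, held none, and neither did Grpel1, Grpel2, Sdf2l1, Sec63 or Timm23. An empty window therefore does not show that a gene is free of heat shock factor 1, and that link was not tested. A match is a stretch of letters, not a site shown to be bound.

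Class B was measured at 8 genes of 13, with a median difference of -0.05 (-0.06 within slide 1). The sign of this median was not stable: it was kept in 13 of 18 other settings, counting the one without Dnajb3. It was 0.04 with probes above background on all 6 arrays and 0.05 with no filter on dim probes. Dnajb1, the main heat-inducible cytosolic member, and Dnajb14, an ER membrane member, had no probe matched by accession and were not analysed here. Dnajb7, Dnajb8 and Dnajb13, which are best known from testis and cilia, had only probes below the detection rule.

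Dnajb2 (HSJ1) sorts ubiquitylated clients of Hsp70 and is best studied in neurons. It stood at 2.81, 2.77 and 2.79 in controls and at 2.38, 2.31 and 2.33 in treated rats. The gap between the groups was wider than the range within either. The difference was -0.45 (SE 0.08, adjusted p = 0.162), or 1.37-fold lower. A dimmer Dnajb2 probe gave -0.56 (SE 0.12, adjusted p = 0.212), again with all treated rats lower, so both probes of the gene had the same sign.

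Dnajb4 (HLJ1), a close relative of Dnajb1, stood at -1.47, -1.43 and -1.36 in controls and at -1.67, -1.82 and -1.58 in treated rats. Again all treated rats were lower, by a narrower gap. The difference was -0.27 (SE 0.10, adjusted p = 0.381), or 1.20-fold lower. Dnajb5, a further relative of Dnajb1, stood at -2.08, -1.70 and -1.80 in controls and at -1.76, -1.18 and -1.91 in treated rats. Its groups overlapped, and the difference was 0.24 (SE 0.21). Dnajb6, which holds polyglutamine proteins in solution, stood at 1.26, 1.29 and 1.46 against 1.55, 1.29 and 1.50. The groups overlapped, and the difference was 0.11 (SE 0.11, adjusted p = 0.690). Another 2 probes gave -0.05 and -0.09.

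Dnajb3, known from testis in mouse, had the largest difference of any member and the least settled one. Its brightest probe stood at -2.68, -1.43 and -3.92 in controls and at -3.95, -4.12 and -4.51 in treated rats, where it was above background on 2 of 3 arrays. The lowest control lay just above the highest treated rat. The difference was -1.52 (SE 0.59, adjusted p = 0.396). A second tested probe had the opposite sign, 0.41 (SE 0.28, adjusted p = 0.571), and another was never above background. Without corn oil replicate 2 the second probe became the brighter one and the value for the gene was 0.41. Without Dnajb3 the count of cytosolic members lower at unadjusted p under 0.05 was 4.

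The other tested class B members reside in the ER. Dnajb9 (ERdj4), which is induced by ER stress and restrains the stress sensor IRE1, stood at 1.38, 1.67 and 2.32 in controls and at 1.27, 2.03 and 1.64 in treated rats. Its spread within each group exceeded the difference of -0.14 (SE 0.29). Dnajb11 (ERdj3), a soluble BiP partner, was at 0.03 (SE 0.22). Dnajb12, an ER membrane protein whose J domain faces the cytosol and which serves ER-associated degradation, was at 0.05 (SE 0.09).

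Class C was measured at 22 genes of 28, with a median difference of 0.03 (0.05 within slide 1). Dnajc1, Dnajc6 and Dnajc13 had no matched probe, and Dnajc5b, Dnajc5g and Dnajc27 had no probe that met the detection rule. Class C differences ran from -0.21 to 0.27, and the 3 members higher at unadjusted p under 0.05 were Dnajc8, Dnajc19 and Dnajc11. That count was 0 without corn oil replicate 2 or without corn oil replicate 3, 1 without anthranilic acid replicate 3 and 2 without any one of the others. In these fits 3.51% to 5.49% of all genes were higher.

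Dnajc19 (TIM14) is the J protein of the import motor at the mitochondrial inner membrane. It stood at 4.83, 4.73 and 4.79 in controls and at 4.96, 5.19 and 5.02 in treated rats. All treated rats were higher. The difference was 0.27 (SE 0.10, adjusted p = 0.367), or 1.21-fold higher. Its 2 much dimmer probes disagreed with each other, at 0.28 (SE 0.14) and -0.06 (SE 0.12).

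Dnajc11, a mitochondrial outer membrane protein bound to the cristae-organising complex, stood at -1.30, -1.46 and -1.37 in controls and at -1.10, -1.25 and -1.03 in treated rats. The groups were separated by less than their own ranges. The difference was 0.25 (SE 0.10, adjusted p = 0.395). Dnajc8, a nuclear protein of the spliceosome, stood at 3.75, 3.71 and 3.72 in controls and at 3.93, 3.93 and 4.01 in treated rats. It was higher in each treated rat, by 0.23 (SE 0.08, adjusted p = 0.353), while a second, dimmer probe gave 0.01 (SE 0.12).

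Dnajc7 (TPR2), which binds both Hsp70 and Hsp90, stood at 1.44, 1.47 and 1.18 in controls and at 1.14, 1.23 and 1.09 in treated rats. Corn oil replicate 3 fell among the treated rats, and the difference was -0.21 (SE 0.11, adjusted p = 0.476). Dnajc9, a nuclear co-chaperone of histones, stood at 1.93, 1.90 and 1.89 in controls and at 1.84, 1.75 and 1.80 in treated rats. The groups did not overlap, yet the difference was -0.11 (SE 0.08, adjusted p = 0.571), and a second probe gave 0.04.

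By compartment, the 12 cytosolic members had a median of -0.11 (-0.10 within slide 1), and 7 were below 0. Besides Dnaja4, Dnajb2, Dnaja1, Dnajb4 and Dnajb3, the 7 others ran from -0.21 to 0.24. The ribosome-bound Dnajc2 was at 0.00 (SE 0.09), Dnajc24, an enzyme of diphthamide synthesis, at 0.01 (SE 0.09), and Dnajc12, a co-chaperone of phenylalanine hydroxylase in liver, at 0.12 (SE 0.19). The cytosolic median was 0.00 without Dnajb3, so it describes the middle of a split list rather than a shift of all its members. Left-out arrays changed the count of 5 lower members to 3 for corn oil replicate 1, corn oil replicate 2, anthranilic acid replicate 1 and anthranilic acid replicate 2, and to 4 for anthranilic acid replicate 3. It was 5 without corn oil replicate 3, but not the same 5, since Dnajb4 was no longer among them. Over all genes the share lower was 4.41% to 6.38% in these fits. Dnaja1, Dnaja4 and Dnajb2 stayed under an unadjusted p of 0.05 in all 6 of these fits.

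The 8 ER members had a median difference of 0.00 (-0.01 within slide 1), with 4 below 0 and 4 above. All lay between -0.14 and 0.11, with adjusted p from 0.661 to 0.963. Dnajc3 (p58IPK), which inhibits the stress kinase PERK and binds unfolded clients with BiP, was at -0.04 (SE 0.13), and Dnajc10 (ERdj5), a disulfide reductase, at 0.11 (SE 0.10). The membrane members Dnajc14, Dnajc16 and Dnajc18 were at 0.08, -0.06 and -0.03. A dim Dnajc14 probe, above background on 2 of 3 treated arrays, gave -0.41 (SE 0.28) where its other 3 gave 0.08 to 0.19.

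The ER medians of single arrays had an SD within groups of 0.124, larger than the difference between groups. Corn oil replicate 3 was the highest control for 6 of 8 ER members and for 9 of 10 ER partner genes, and anthranilic acid replicate 2 was the highest treated rat for 4 of 8 and 6 of 10. For Hspa5, the Hsp70 of the ER, controls stood at 6.41, 6.74 and 7.21 and treated rats at 6.55, 7.11 and 6.71, in the same within-group order as Dnajb9. At their brightest probes, the differences of Hspa5 (0.00, SE 0.24), Hyou1 (0.05, SE 0.34) and Hsp90b1 (-0.01, SE 0.21) were as small as those of the ER DnaJ genes. Dimmer probes gave -0.14 (SE 0.31) for Hyou1 and -0.30 (SE 0.21) for Hsp90b1, the latter larger than any of those.

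The 5 mitochondrial members had a median of 0.15 (0.18 within slide 1). Dnajc30, a protein of the inner membrane, was at 0.15 (SE 0.12), and Dnajc15, a paralogue of Dnajc19, stood at 2.82, 2.86 and 2.85 in controls and at 2.72, 2.83 and 2.74 in treated rats, a difference of -0.08 (SE 0.08). The paralogues of the import motor thus had opposite signs, and the difference between them was not tested. The count of 2 mitochondrial members higher at unadjusted p under 0.05 was 1 or 0 whenever any 1 of the 6 arrays was left out. In those fits 3.51% to 5.49% of all genes were higher.

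**Figure D3:**
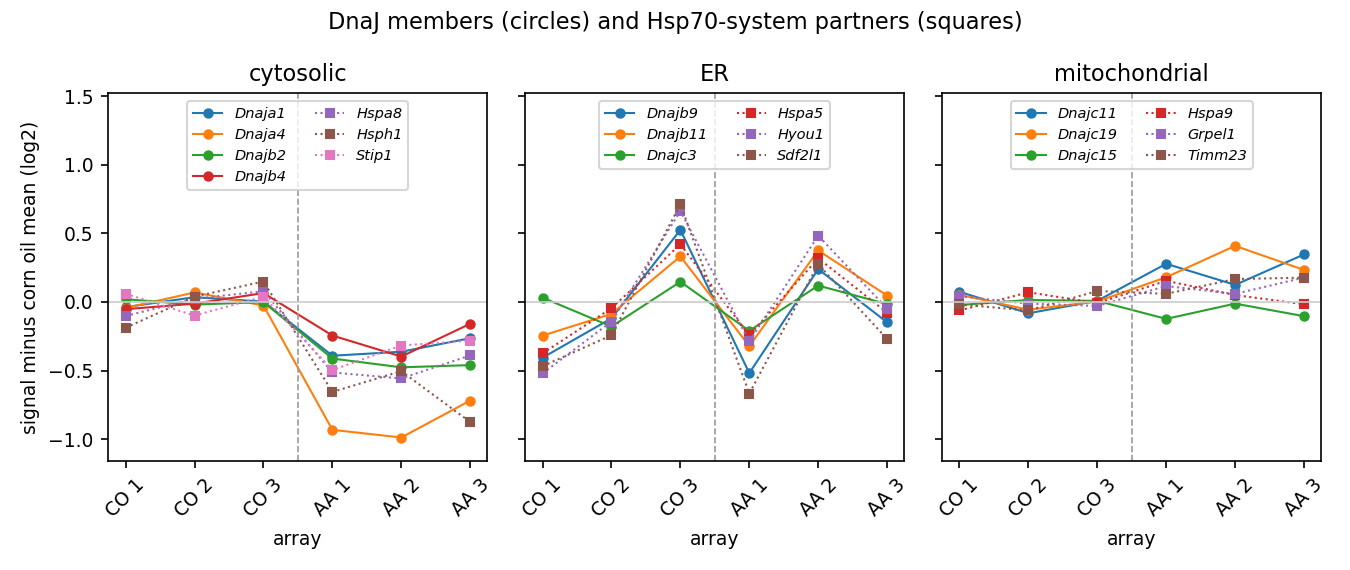
Log2 signal relative to the corn oil mean on each array (CO, corn oil; AA, anthranilic acid; numbers are replicates) for DnaJ members (circles, solid lines) and Hsp70-system partners (squares, dotted lines) in 3 compartments, chosen after their values were seen. Lines join the values of 1 gene and imply no order of the arrays. The cytosolic genes chosen lie lower on all treated arrays, a result of that choice. Of all those tested, 7 of 12 cytosolic members and 9 of 16 cytosolic partners were below 0. The ER genes chosen are high on corn oil replicate 3 and anthranilic acid replicate 2.

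None of the listed Hsp70-system partner genes passed the test. The list holds Hsp70s with their exchange factors and regulators. It also holds other folding, import and stress genes of the same compartments, such as Hspd1, Hsp90b1, Timm23, Xbp1 and the J protein gene Sec63. Among 16 tested cytosolic partners, 0 passed, 4 were lower at unadjusted p under 0.05 and 0 higher, against 6.15% and 5.47% of all genes. One of the 4 is Hspa1a, which met the detection rule through its corn oil arrays alone, so the count is better read without it. The others are Hspa8, Hsph1 and Stip1. Hspa1a, the inducible Hsp70, stood at -0.86, -0.08 and -2.02 in controls and none of the 3 treated arrays read it well above background. In the main processing it was at least 9.90-fold lower there. That bound takes as the treated level, per array, either the probe's own reading or the dimmest reading of any detected probe, whichever is greater. It was not set for this probe and holds for that processing alone. The fitted difference, which uses undetected readings, was -3.61 (limma adjusted p = 0.107). With normexp background correction it was -1.84. Hspa8 was at -0.49 (SE 0.09, adjusted p = 0.196), the exchange factor Hsph1 at -0.68 (SE 0.14, adjusted p = 0.211) and the Hsp70 and Hsp90 adaptor Stip1 at -0.37 (SE 0.10, adjusted p = 0.299). Hsf1, the gene of the heat shock factor itself, was at 0.15 (SE 0.11).

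Of 10 ER partners and 10 mitochondrial partners, 0 passed by limma and 0 were under an unadjusted p of 0.05 in either list. The ER translocon J protein Sec63 was at 0.26 (SE 0.13), the stress sensor Atf6 at -0.15 (SE 0.16) and the BiP co-factor Sdf2l1 at -0.22 (SE 0.37). A dimmer Sec63 probe had the opposite sign, -0.16 (SE 0.10). In mitochondria the import channel gene Timm23 was at 0.13 (SE 0.09), the exchange factor Grpel1 at 0.12 (SE 0.08) and Grpel2 at -0.20 (SE 0.15). Hspa9, the Hsp70 that Dnajc19 and Dnaja3 serve, was at 0.06 (SE 0.09).

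Probes of the same gene give a check within each array. Of the 16 members with more than 1 tested probe, 7 had all probes on one side of 0 and 9 had both signs. The probes lay farthest apart for Dnajb3 (1.93 on the log2 scale), Dnajc14 (0.60) and Dnajc19 (0.34), and within 0.223 for the other 13 members. Of the members under an unadjusted p of 0.05, Dnajb2 had 2 probes with similar values, Dnajc8 and Dnajc19 each had a dimmer probe near 0, Dnajb3 had probes of opposite sign, and Dnaja1, Dnaja4, Dnajb4 and Dnajc11 each rested on 1 probe.

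**Figure D4:**
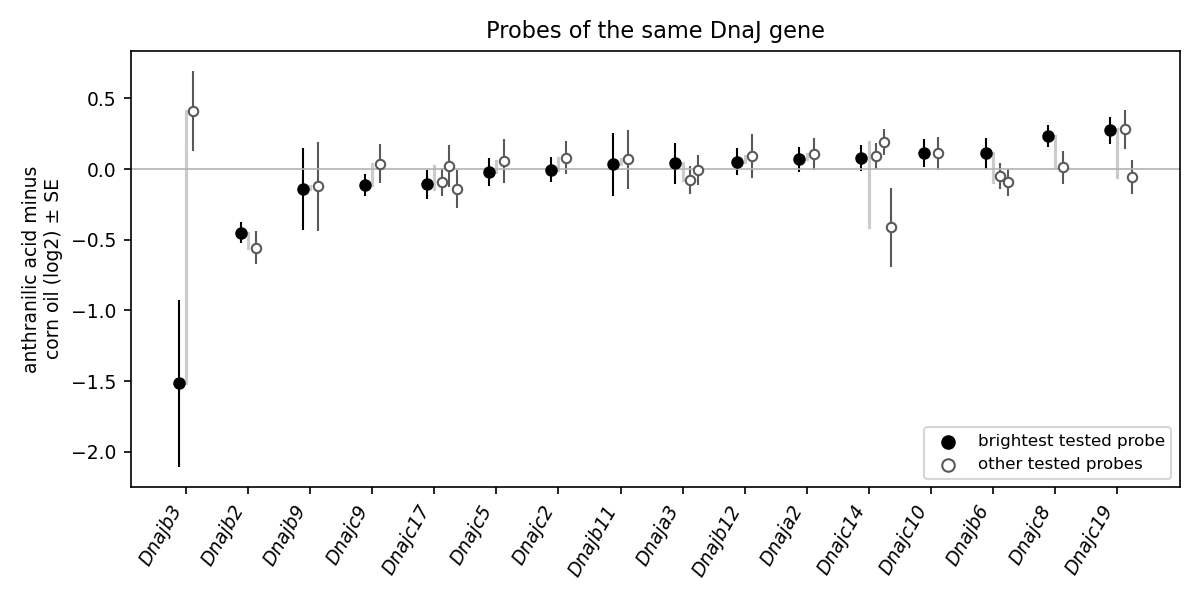
Differences (anthranilic acid minus corn oil, log2, with the standard error of the limma fit) at each tested probe of the 16 DnaJ genes with more than 1, filled for the brightest probe and open for the others. The Dnajb2 probes lie together near -0.5, and those of Dnajb3 lie on opposite sides of 0.

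The remaining members are found in other places or have a less settled location. Dnajc28 was at 0.17 (SE 0.12), Dnajc4 at 0.10 (SE 0.10), Dnajc22 at 0.06 (SE 0.11) and Dnajc25 at 0.06 (SE 0.08). Dnajc17, a nuclear protein, was at -0.11 (SE 0.10), Dnajc21, which serves ribosome assembly, at 0.00 (SE 0.11), and Dnajc5, the cysteine string protein of secretory vesicles, at -0.02 (SE 0.10). Their adjusted p-values were all 0.580 or more. In all, 26 of the 34 members had unadjusted p of 0.05 or more, with differences from -0.21 to 0.24.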

How the data were processed

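Liver RNA of 6 rats was measured on 1-colour arrays. Per the file headers, Agilent Feature Extraction 10.7.1.1 made the deposited spot intensities, with background subtraction, spatial detrending and small positive values for dim spots; the submitters' processing notes name version 10.7. The authors' deposited value table holds a ratio of that signal to 1 value per array near its 75th percentile, and served as an alternative. Here log2 intensities were centred on each array's 75th percentile, and 14 of 369942 non-control spots flagged as outliers were left out. Accessions were matched without version to RefSeq symbols (GRCr8), which named 27460 of 61657 probes; the array's own build is rn4, so probe positions are not given.

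The test was limma (version 3.58.1, R 4.3.3; linear fit with empirical Bayes variances, two-sided), with Benjamini-Hochberg adjustment over 33428 probes, also tested on simulated data. Replicates are separate rats, and their number limits the precision. The members, lists and compartments were chosen with earlier results of these data known. Levels by array are given for all class A members, the 5 class B and 5 class C members with the smallest p, and the member of each compartment with the largest difference; those of Dnajc15 were added after seeing its values. Of each partner compartment, the 3 with the smallest p are named, and others after their values were seen. Some genes of the array are unnamed and not used here.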

Additional observations from a re-analysis of the deposited data

How the results depend on the processing

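No DnaJ probe or gene passed under any of 17 alternatives, or without Dnajb3, a setting chosen after seeing the data. Partners past the threshold ranged from 0 to 1 over arrays left out. The 1 was Hspa1a without corn oil replicate 3 (adjusted p = 0.0446). No treated array read it well above background, so the size of its difference is not settled. Leaving out 1 array gave 3 to 5 members lower at unadjusted p under 0.05, all cytosolic, and 0 to 2 higher, 0 to 1 of them mitochondrial. In those fits 4.41% to 6.38% of all genes were lower and 3.51% to 5.49% higher. Members higher without overlap numbered 3 to 7. The share of all genes without overlap was not computed there, and fewer arrays separate more easily. Leaving out 1 array gave medians of -0.19 to -0.11 for class A, -0.19 to 0.12 for class B, 0.023 to 0.064 for class C, -0.12 to -0.000487 for cytosolic members and 0.069 to 0.22 for mitochondrial members.

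The mitochondrial count of higher members was 1 with normexp, no scaling, no filter on dim probes, slide as a block, a trended robust variance or the mean of a gene's probes, and 0 with the replicate block. The count of all higher members was 1 with slide as a block or the mean of probes, and 0 with the replicate block. Under these settings 3.83% to 6.79% of all genes were higher at unadjusted limma p under 0.05. The count of higher members without overlap was 1 with the mean of probes, where the share of all genes without overlap was not computed. The class C median was 0.00932 with quantile normalisation and -0.00161 without scaling, the mitochondrial median 0.089 with normexp, and the cytosolic median -0.14 without scaling, 0.00509 with no filter or with probes above background on all 6 arrays, and -0.00322 without Dnajb3.

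Signs reversed for members near 0 and for Dnajb3 (0.41 with probes above background on all 6 arrays). Dnajc21 was at -0.051 with normexp, -0.035 without scaling, -0.072 with slide as a block and -0.00997 with array weights. Quantile normalisation gave 0.00309 for Dnajc18 and -0.028 for Dnajc22, no scaling gave -0.00264 for Dnajb11 and -0.023 for Dnajc24, and array weights gave 0.00839 for Dnajc2 and 0.00315 for Dnajc3. The mean of probes gave -0.016 for Dnaja3, -0.00926 for Dnajb6, -0.014 for Dnajc14, 0.039 for Dnajc2 and 0.017 for Dnajc5. Over arrays left out, ranges spanning 0 were -0.0500 to 0.18 for Dnaja3, -0.14 to 0.21 for Dnajb11, -2.14 to 0.41 for Dnajb3, -0.35 to 0.12 for Dnajb9, -0.033 to 0.26 for Dnajc12, -0.20 to 0.095 for Dnajc16, -0.21 to 0.092 for Dnajc18, -0.031 to 0.046 for Dnajc2, -0.072 to 0.071 for Dnajc21, -0.00221 to 0.15 for Dnajc22, -0.035 to 0.052 for Dnajc24, -0.12 to 0.052 for Dnajc3, -0.076 to 0.056 for Dnajc5 and -0.47 to 0.13 for Sdf2l1. The cause was not tested.

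Rats were not treated as paired by replicate number. Deviations of same-numbered arrays correlated at 0.07, -0.05 and -0.04, and those of differently numbered arrays at -0.13 to 0.16. With 3 arrays per group, these values cannot show whether same-numbered rats were handled together. With the replicate block Dnaja4 was at -0.88 (adjusted p = 0.321). Signals near background limit Dnajb3, and 6 members had no probe bright enough to test.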
